A study of Equus caballus with 4 samples.

Results

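The genes described here code for the pyruvate dehydrogenase kinases, the catalytic subunit those kinases act on, and 4 enzymes of the citric acid cycle. They are *PDK1*, *PDK2*, *PDK3*, *PDK4*, *PDHA1*, *CS*, *OGDH*, *MDH2* and *SUCLA2*, found by symbol among the gene names that the array annotation gives, so that 9 of the 15245 named genes were taken, with 13 probes. Their mRNA was measured in differentiating equine satellite cells, the muscle stem cells that fuse into myotubes, with and without HMB, the leucine metabolite β-hydroxy-β-methylbutyrate. The cells came from the semitendinosus muscle of 6 colts aged 6 months, and HMB was present for 24 h after 48 h of differentiation, so that both groups were collected on day 3 of differentiation. The labels give its dose as 50 µg and the study's methods as 50 µM. Cells of all 6 colts were cultured, but by the methods only samples of the highest RNA integrity went onto the 4 arrays, and the colts behind each array are not stated. On each of 4 two-colour arrays, called biological replicates in the labels and hybridised on 1 slide, HMB-treated cells carried Cy5 and control cells Cy3.

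Pyruvate from glycolysis enters mitochondria through a carrier and is turned into acetyl-CoA by the pyruvate dehydrogenase complex. The kinases switch this complex off by phosphorylating its catalytic subunit, and phosphatases switch it on again. Acetyl-CoA is then oxidised in the citric acid cycle, which supplies electrons to the respiratory chain, and in muscle the kinases set how far carbohydrate rather than fat is burned.

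HMB-treated cells had less *MDH2* mRNA than control cells on each of the 4 arrays, 1.35-fold lower on average (*n* 4), although that direction was not kept when normexp background correction and centring of each array on its median replaced the authors' normalisation (0.11 on the log2 scale). The other 7 members that could be tested, 3 kinases among them, did not pass the test of difference from 0. *PDK4*, the fourth kinase, was too dim to be tested. Among the wider set of pyruvate and citric acid cycle genes, the phosphatase *PDP1* and, among genes of anaplerosis and carbon exit, *GOT2*, *ACO1* and *SLC25A10* rose, but 0 of these calls, that of *MDH2* included, were kept in limma without array 2 or without array 3, and those of *GOT2* and *ACO1* were lost whichever array was left out.

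Values are log2 ratios of HMB-treated v. control cells, so that a positive value stands for more mRNA with HMB. Each probe's mean over the arrays was tested against 0, two-sided, with limma, and the adjusted p is that of Benjamini and Hochberg over all 27383 tested probes, with a threshold of 0.05. Intervals are 95% intervals of the mean from limma. Values marked without lowess come from normexp background correction with arrays centred on their medians, which changes the background step as well as the dye balance. Under that setting 5706 of all 27383 tested probes were called higher and 1585 lower, against which list counts without lowess are to be read. The per-probe test is a Student test of each probe on its own ratios, in which 0 of the tested members pass the adjusted threshold. Since 2.8% of all tested probes pass it, a count of 0 in a short list says little about that list. Counts at an unadjusted limma p under 0.05 are given without a share of all tested genes, so they are not read as results. Of the 8 members tested, 1 (12.5%) passed the threshold, a share to be read against the 22.8% of all 9986 tested named genes that passed it. That 1 was lower with HMB, as were 11.3% of all tested named genes. When array 2 or array 3 was left out, 0 of the 8 passed in limma, and the share of all tested probes dropped to 9.38% and 9.97%. The median of the 8 means was 0.05, compared with 0.03 over all tested genes, and the median of their sizes regardless of sign was 0.17, compared with 0.15. With 4 arrays an exact test that flips the signs of whole arrays cannot go below a p of 0.125, so no exact test was used to call a gene. The dyes were never swapped, so a bias of a probe towards a dye is part of every ratio and cannot be told apart from HMB.

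**Figure D1:**
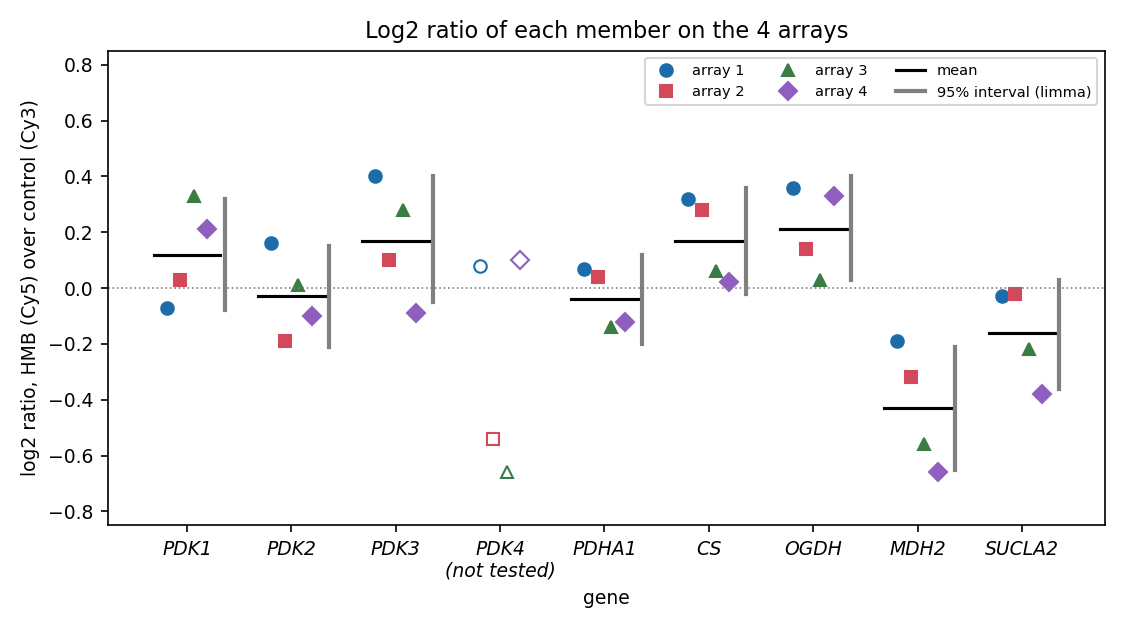
Log2 ratio of HMB-treated v. control cells for each member on arrays 1 to 4 (points), with the mean (black bar) and its 95% interval from limma (grey bar), *n* 4. *MDH2* was below 0 on all 4 arrays (mean -0.43, but 0.11 without lowess), and the intervals of *OGDH* and *MDH2* did not include 0, although that of *OGDH* was not past the adjusted threshold; *PDK4* (open points) was not tested.

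The label of the cells was checked against genes of muscle differentiation. Of 14 myogenic symbols listed, 12 were well above background and tested, so that markers of myogenic cells were present. *PAX7*, which defines quiescent satellite cells, was not well above background in either channel, and *MYMK* was found under its older symbol *TMEM8C* alone. Of these 12, 11 fell with HMB and 0 rose, compared with 11.3% of all tested genes lower, with a median of -0.89 (-0.36 without lowess, where 8 were lower), and *TMEM8C*, which drives fusion, was the 1 not past the threshold (mean -0.27, adjusted p 0.114, 0.0458 without array 1). Leaving out arrays 1 to 4 in turn, 12, 7, 6 and 9 of them fell, and in the per-probe test 0 of the 12 passed, all 12 having an unadjusted limma p under 0.05. The medians of this list were -0.35, -0.80, -1.06 and -1.22 on arrays 1 to 4, and the log2 ratio of its summed signals was -0.42, -0.95, -1.16 and -1.39. Array 1 thus showed the smallest fall of muscle genes and array 4 the largest. The most intense gene of the list was *MYH3*, an embryonic myosin, at -0.51, -0.99, -1.38 and -1.57 on arrays 1 to 4 (mean -1.11, adjusted p 0.00846). Without lowess its mean was -0.21 and it was not past the threshold (adjusted p 0.104), nor was it in the per-probe test (0.105) or with no filter on dim probes (0.0683). In these bulk samples, fewer differentiated cells and less of an mRNA per cell cannot be told apart.

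Among 10 fibroblast markers, 9 were tested and 1 (11.1%) passed, compared with 22.8% of all tested genes. This was *PDGFRA*, which rose by 1.53 (adjusted p 0.00358, higher on 4 of 4 arrays). Its mean was 0.89 after normexp correction with loess and 0.93 without lowess, and the per-probe test ended its call (0.0775). The summed signal of the fibroblast list had log2 ratios of 0.25, -0.17, -0.19 and -0.56 on arrays 1 to 4, its most intense gene was the collagen gene *COL1A2* (mean -0.20, adjusted p 0.247, 1.02 without lowess), and its marker *TCF21* was too dim to be tested. Of the 9 probes of *COL1A2* 2 passed, both lower, and as the mean of its probes it stood at -0.43 (adjusted p 0.0919). *DCN* was not past the threshold (mean 0.15, adjusted p 0.286), although 1 of its 2 probes passed, higher. The median of the list was -0.10, which turned to 0.10 after normexp correction with loess and to 0.62 without lowess, where 2 and 7 of the 9 were higher and 0 lower, and 2 genes passed without array 1 (*COL1A1* lower, adjusted p 0.0316) and without array 4 (*TCF7L2* higher, 0.0437). Of 8 leukocyte markers 3 were tested and 1 (33.3%) passed, compared with 22.8% of all tested genes. This was *PTPRC* (mean 0.28, adjusted p 0.0374), whose tested probes did not all point the same way. The markers *AIF1*, *CSF1R*, *CD3E*, *ITGAM* and *LYZ* were too dim to be tested. Leaving out any array ended the call of *PTPRC*, with adjusted p values of 0.0678, 0.115, 0.11 and 0.0551 without arrays 1 to 4, and as the mean of its tested probes it stood at 0.13 (0.208). Without lowess its mean was 0.66 (adjusted p 0.00702), and *CD14* passed as well (0.30, adjusted p 0.0382, compared with 0.02 and 0.868), so that 2 of the 3 were higher. The summed leukocyte signals had log2 ratios of 0.38, 0.15, 0.16 and 0.08. None of the 6 adipocyte markers found (of 7) and none of the 5 endothelial markers was bright enough to be tested. The part of differentiation state or of other cells in the values of the pyruvate and cycle genes was not tested.

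The kinases were measured by 1 probe each. Those of *PDK2* and *PDK3* are shown because they mark which stretch of each mRNA was read, on chr11:24623209-24623360 (EquCab1, plus strand) and chrX:12773303-12773362 (EquCab1, plus strand). The 60 bases of the *PDK2* probe span 152 bases of genome, as a probe over an exon junction does.
PDK2 probe A_69_P033816: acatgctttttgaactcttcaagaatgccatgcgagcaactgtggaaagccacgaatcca
PDK3 probe A_69_P090371: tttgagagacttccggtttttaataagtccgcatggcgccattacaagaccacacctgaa
*PDK1*, the isoform known for its rise under low oxygen, had log2 ratios of -0.07, 0.03, 0.33 and 0.21 on arrays 1 to 4. Array 1 was just under 0, and arrays 3 and 4 were above it. Its mean was 0.12 (SE 0.08, interval -0.08 to 0.32, adjusted p 0.315, higher on 3 of 4 arrays), and it ranged from 0.06 (without array 3) to 0.19 (without array 1) with an array left out.

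*PDK2*, the most widely expressed isoform, had log2 ratios of 0.16, -0.19, 0.01 and -0.10. Arrays 1 and 2 were on opposite sides of 0. The mean was -0.03 (SE 0.08, interval -0.21 to 0.15, adjusted p 0.799), and with an array left out it ranged from -0.09 (without array 1) to 0.02 (without array 2). *PDK3*, the remaining isoform with a measurable signal, had log2 ratios of 0.40, 0.10, 0.28 and -0.09. It was above 0 on arrays 1 to 3 and below it on array 4, with a mean of 0.17 (SE 0.09, interval -0.05 to 0.40, adjusted p 0.225), and from 0.10 (without array 1) to 0.26 (without array 4) with an array left out. By the authors' normalisation the intervals of these 3 kinases leave room for a rise of up to 1.25-fold in *PDK1*, 1.11-fold in *PDK2* and 1.32-fold in *PDK3*. Without lowess their means were 0.42 (*PDK1*, adjusted p 0.0767), -0.01 (*PDK2*, 0.939) and 0.24 (*PDK3*, 0.0812), that of *PDK1* lying above the interval given for it. Of these 3, 0 passed at an unadjusted limma p under 0.05 either, and their median was 0.12, compared with 0.03 over all tested genes.

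*PDK4*, the isoform induced by fasting, fatty acids and glucocorticoids in muscle, stood near the detection limit. Its processed signal in control cells was 14.9, 23.5, 13.0 and 25.4 on arrays 1 to 4, where the dimmest spots marked well above background had 16.4, 15.6, 13.4 and 18.1. In HMB-treated cells it was 15.8, 16.1, 8.19 and 27.3, where the dimmest such spots had 15.0, 14.0, 16.2 and 17.7. Feature Extraction marked the spot well above background on arrays 2 and 4 in each channel and not on arrays 1 and 3. Its log2 ratios, 0.08, -0.54, -0.66 and 0.10, are therefore not read as a fold, and its mRNA could not be compared between groups at this signal. With no filter on dim probes it had an adjusted p of 0.437.

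**Figure D2:**
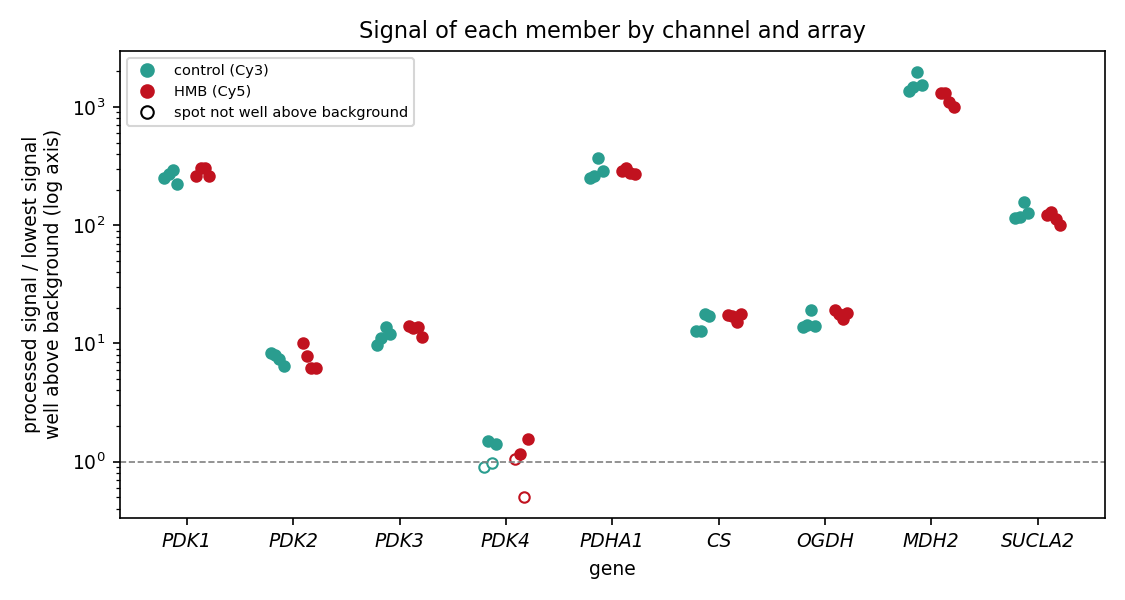
Processed signal of each member divided by the lowest signal well above background of the same channel and array (log axis), for control (Cy3) and HMB-treated (Cy5) cells on 4 arrays each. *PDK4* lies at 0.505 to 1.54 times that limit and *MDH2* at up to 1980 times; levels of different probes are not comparable as mRNA amounts.

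Of the 3 phosphatase genes listed, only *PDP1* was bright enough to be tested, since *PDP2* and *PDPR* (the regulatory subunit) were not well above background on any array. *PDP1*, the calcium-stimulated phosphatase that reactivates the complex in muscle, had log2 ratios of 0.21, 0.42, 0.38 and 0.34 on arrays 1 to 4. All 4 arrays were above 0 and close to each other. It rose by 0.34 (SE 0.06, interval 0.18 to 0.50, adjusted p 0.016), and its other probe had a mean of 0.59 and passed as well. Without array 2 its adjusted p was 0.0885 and without array 3 it was 0.0749. After normexp background correction its mean was 0.15, with adjusted p values of 0.0729 with loess and 0.161 with arrays centred on their medians.

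*PDHA1* codes for the E1 alpha subunit, which carries the serines that the kinases phosphorylate. Its probe, shown because it reads the substrate of the 4 kinases, covers 500 bases of genome at chrX:8331418-8331917 (EquCab1, plus strand).
PDHA1 probe A_69_P090233: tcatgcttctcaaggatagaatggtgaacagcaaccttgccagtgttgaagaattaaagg
Its log2 ratios were 0.07, 0.04, -0.14 and -0.12 on arrays 1 to 4, just above 0 on the first pair of arrays and below it on the other pair. The mean was -0.04 (SE 0.07, interval -0.20 to 0.12, adjusted p 0.712), and it was 0.25 without lowess (adjusted p 0.0706). With an array left out it ranged from -0.07 (without array 1) to 0.00 (without array 3).

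All 5 subunits of the complex had means below 0 (median -0.13, but 0.16 without lowess), as had 4529 of all 9986 tested genes. Of the 5, 0 passed the threshold in limma, compared with 22.8% of all tested genes. In the per-probe test 0 passed, compared with 2.8% of all tested probes, and 1 had an unadjusted limma p under 0.05. *PDHX*, which holds the E3 component to the core, had log2 ratios of -0.10, -0.19, -0.31 and -0.52. It was lowest on array 4, and its mean was -0.28 (SE 0.08, interval -0.48 to -0.08, adjusted p 0.0584, lower on 4 of 4 arrays). After normexp correction with loess it passed the threshold (mean -0.31, adjusted p 0.0302), and without lowess it was at -0.11 (0.305). *DLAT*, the E2 core, had log2 ratios of -0.18, -0.14, -0.22 and -0.05, with a mean of -0.14 (adjusted p 0.139, lower on 4 of 4 arrays, 0.03 without lowess), and with normexp correction and loess it passed too (mean -0.19, adjusted p 0.0465). The probes of *DLD*, the E3 component shared with other ketoacid dehydrogenases, disagreed on the call: the brighter had a mean of -0.13 and was not past the threshold, and the other, at -0.24, was.

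The pyruvate carrier is made of the products of *MPC1* and *MPC2*. *MPC1* had log2 ratios of -0.01, 0.20, 0.22 and 0.42, with a mean of 0.21 (interval 0.01 to 0.41, adjusted p 0.118), while 2 of its 5 probes passed the threshold, both higher. Without lowess the gene passed as well, at 0.57 (adjusted p 0.0421). *MPC2* had log2 ratios of 0.01, 0.10, 0.14 and -0.09 and a mean of 0.04 (interval -0.12 to 0.20, adjusted p 0.683). Without lowess its mean was 0.36, above that interval (adjusted p 0.0525).

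Citrate synthase (*CS*) joins acetyl-CoA to oxaloacetate, and *OGDH* codes for the E1 component of the oxoglutarate dehydrogenase complex. Their probes are shown as the members whose ratio was above 0 on every array, from chrUn:195470324-195470383 (EquCab1, minus strand) and chr4:15462473-15462532 (EquCab1, plus strand).
CS probe A_69_P002771: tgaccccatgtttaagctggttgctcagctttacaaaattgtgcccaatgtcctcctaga
OGDH probe A_69_P078246: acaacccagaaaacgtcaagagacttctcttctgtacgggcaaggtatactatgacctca
The log2 ratios of *CS* were 0.32, 0.28, 0.06 and 0.02 on arrays 1 to 4. Arrays 1 and 2 stood apart from arrays 3 and 4, which were near 0. The mean was 0.17 (SE 0.08, interval -0.02 to 0.36, adjusted p 0.158), 0.22 without lowess (adjusted p 0.0597) and 0.10 after normexp correction with loess.

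*OGDH* had log2 ratios of 0.36, 0.14, 0.03 and 0.33. Arrays 1 and 4 were the high ones here. Its mean of 0.21 (SE 0.08, interval 0.03 to 0.40, higher on 4 of 4 arrays) was not past the threshold, with an adjusted p of 0.0945, and without lowess it passed at 0.28 (adjusted p 0.0456), in a range over the alternatives from that value to 0.243. *SUCLA2*, the ATP-forming subunit of succinyl-CoA ligase, had log2 ratios of -0.03, -0.02, -0.22 and -0.38. It was near 0 on arrays 1 and 2 and lower on arrays 3 and 4. The mean was -0.16 (SE 0.08, interval -0.36 to 0.03, adjusted p 0.192, lower on 4 of 4 arrays), and it was 0.06 without lowess and -0.09 without array 4.

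*MDH2* codes for mitochondrial malate dehydrogenase, which regenerates oxaloacetate at the end of the cycle and takes part in the malate-aspartate shuttle. It had 5 probes in 2 groups: the first 3 share 56 to 59 bases with each other and the last pair 59, while probes of different groups share 2 to 6 bases, so the groups read neighbouring stretches of the transcript. Shown are the probe used for the gene, at chrUn:174417927-174419476, and a probe of the other group, at chrUn:174417870-174417929 (both EquCab1, minus strand), because the fall in *MDH2* rests on both stretches. The former spans 1550 bases of genome.
MDH2 probe A_69_P002004: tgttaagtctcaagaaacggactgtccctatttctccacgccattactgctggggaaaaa
MDH2 probe A_69_P002002: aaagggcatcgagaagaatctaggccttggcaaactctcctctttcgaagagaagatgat
In control cells the probe used for the gene had processed signals of 22400, 23000, 26500 and 28200 on arrays 1 to 4. In HMB-treated cells it had 19600, 18500, 18000 and 17800. Every HMB signal was thus lower than every control signal.

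The log2 ratios of *MDH2* were -0.19, -0.32, -0.56 and -0.66 on arrays 1 to 4. Array 1 had the smallest fall and array 4 the largest, as in the medians of the myogenic genes (-0.35, -0.80, -1.06 and -1.22), whose part in this was not tested. On average *MDH2* fell by 0.43 (SE 0.09, interval -0.65 to -0.21), which is a change of -25.8%, with an adjusted p of 0.0227 and lower values on 4 of 4 arrays. Its mean was below those of most tested genes, yet 747 (7.48%) had lower means still. All 5 probes passed the threshold, with means from -0.44 to -0.41 and adjusted p values from 0.0152 to 0.0227. On no array did the 5 probes differ by more than 0.05, which is less than the SD of 0.21 over the arrays. Leaving out array 2 or array 3 ended the call (adjusted p 0.0632 and 0.0909), whereas it held without array 1 (0.0272) or array 4 (0.0495). The gene was also not past the threshold in the per-probe test (0.126) or with no filter on dim probes (0.0889).

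**Figure D3:**
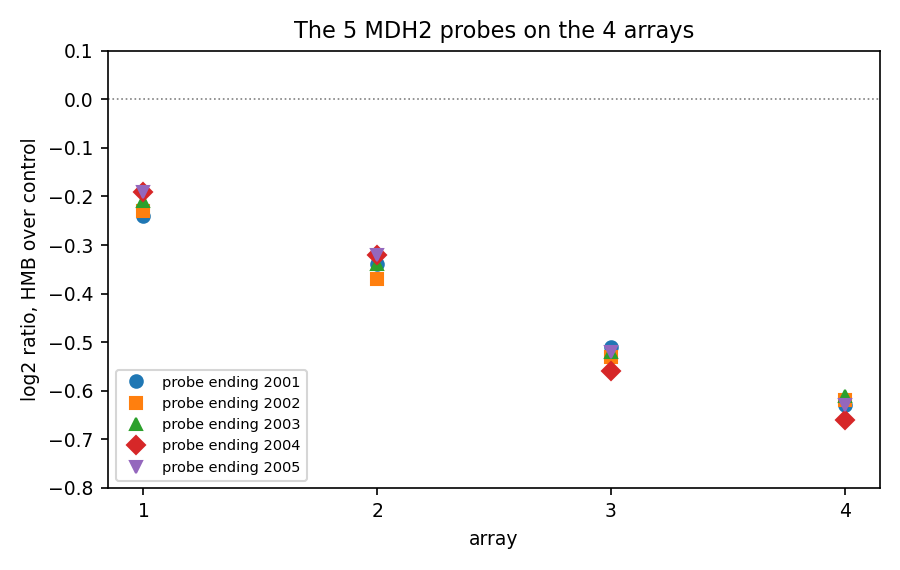
Log2 ratio of HMB-treated v. control cells for the 5 *MDH2* probes on arrays 1 to 4, *n* 4. The probes lie within 0.05 of each other on each array and below 0 on all 4 with the authors' lowess normalisation (mean 0.11 for the probe used for the gene without lowess).

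The direction of *MDH2* depended on the normalisation. Among 15 alternatives its mean was below 0 in 14 and past the threshold in 10, with adjusted p values from 0.0116 to 0.336. Many of these reuse the same ratios, so that their mean of -0.43 could not change. The series table and the separate channels with the array as block repeat the main fit (adjusted p 0.0227 in both). The counts are therefore not read as support for the direction. Without lowess its mean was 0.11 (adjusted p 0.336). Under that alternative the median of all tested probes was 0.15 instead of 0.02, and 5706 probes were called higher and 1585 lower (78.3% higher) instead of 3071 and 3186 (49.1%). Relative to that shift *MDH2* stood at -0.04, and relative to the probes of its own intensity quartile, the brightest, whose median was 0.35, it stood at -0.24. Against the same quartiles the other members stood at 0.07 (*PDK1*), -0.13 (*PDK2*), 0.12 (*PDK3*), -0.10 (*PDHA1*), 0.10 (*CS*), 0.16 (*OGDH*) and -0.15 (*SUCLA2*). With normexp correction and loess, *MDH2* was at -0.41 (adjusted p 0.0192).

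The genes whose log2 ratios lay nearest to those of *MDH2* over the 4 arrays, by Euclidean distance among 9981 other genes, were *MYOG* (0.03), *BMP2* (0.06), *PI4KB* (0.07) and *TSPAN3* (0.08). *MYOG*, the transcription factor of myocyte differentiation, had log2 ratios of -0.20, -0.31, -0.54 and -0.64 and a mean of -0.42 (adjusted p 0.0222). *BMP2* codes for a secreted growth factor, *PI4KB* for a lipid kinase of the Golgi and *TSPAN3* for a membrane protein, and their means were -0.46, -0.42 and -0.43. All 4 passed the threshold in limma (adjusted p from 0.0189 to 0.0309). As they were chosen for ratios close to those of *MDH2*, their means and calls are not independent of its own. Without array 2 their adjusted p values, in the order given, were 0.0625, 0.06, 0.0817 and 0.0647, and without array 3 they were 0.0901, 0.0849, 0.117 and 0.0793. Without array 4, *PI4KB* (0.0676) was also not past it. Without lowess 0 of the 4 passed in limma (adjusted p 0.086, 0.079, 0.166 and 0.284), and their means of -0.20, -0.20, -0.15 and -0.11 stayed below 0 while that of *MDH2* was 0.11, so the nearness was measured with the authors' normalisation alone.

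Array 1 gave the highest ratio in 6 of the 8 tested members, where 37.1% of all tested genes had it highest, and array 4 gave the lowest in 4 of the 8, where 37.1% of all tested genes had it lowest. These shares were not tested. Ratios of 1 sign on all arrays were found in 4 of the 8, namely *CS* and *OGDH* above 0 and *SUCLA2* and *MDH2* below it (the latter pair above 0 on average without lowess), compared with 46.3% of all tested genes. The medians of the 8 members on arrays 1 to 4 were 0.11, 0.04, 0.02 and -0.10, and those of all tested genes 0.04, 0.02, 0.02 and 0.00. The SD of the log2 ratios of all probes was widest on array 4, at 0.48, compared with 0.35, 0.34 and 0.39 on the others.

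Of 18 enzymes and subunits of the cycle, 17 were tested, and *SDHD* was not found by name. Apart from *MDH2*, the other 16 were not past the threshold, so that 5.88% of the list passed, compared with 22.8% of all tested genes. Of the 17 means 11 were below 0, compared with 4529 of all 9986 tested genes. The median of the list was -0.06 (0.17 without lowess, where 4 of the 17 were higher and 0 lower). Genes for succinate dehydrogenase, isocitrate dehydrogenase, aconitase and fumarase were among those 16. *SDHC*, singled out after its values were seen, had the widest spread, with -1.10 on array 2 and 0.37 on array 4.

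In the wider set, 48 of 50 genes for pyruvate oxidation, the cycle and its side reactions were found and 45 tested. Of these, 5 (11.1%) passed the threshold, 4 higher and 1 lower, compared with 22.8% of all tested genes, and the median was -0.02 (0.22 without lowess). At an unadjusted limma p under 0.05 there were 12, for which no share of all tested genes is given. In the per-probe test 0 passed, compared with 2.8% of all tested probes. The balance of directions turned with the normalisation, with 2 higher and 4 lower after normexp correction with loess and 12 higher and 0 lower without lowess. Without array 2 and without array 3, 0 passed in limma, compared with 4 without array 1 and 5 without array 4. These were not all the same genes as in the main fit. Without array 4, *GOT2* (adjusted p 0.0544) and *ACO1* (0.0685) were not among the 5, and without array 1, *GOT1* (0.0306, lower) was among the 4.

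Anaplerosis and the exit of carbon from the cycle held 3 of those 5. Of its 18 tested genes, 3 (16.7%, compared with 22.8% of all tested genes past the threshold and 11.5% higher) rose and 0 fell in limma, with a median of 0.04. Without lowess the median was 0.27, with 7 higher and 0 lower, compared with 5706 and 1585 of all 27383 tested probes. After normexp correction with loess 2 were higher and 1 lower. *GOT2*, the mitochondrial aspartate aminotransferase and partner of *MDH2* in the malate-aspartate shuttle, had log2 ratios of 0.51, 0.24, 0.21 and 0.22. Array 1 stood above the other 3, and the gene rose by 0.29 (SE 0.07, interval 0.11 to 0.47, adjusted p 0.0363). *ACO1*, the cytosolic aconitase that doubles as an iron-regulatory protein, had log2 ratios of 0.54, 0.20, 0.21 and 0.19. It too was highest on array 1, and it rose by 0.29 (SE 0.08, interval 0.09 to 0.48, adjusted p 0.0497). *SLC25A10*, the mitochondrial dicarboxylate carrier, had log2 ratios of 0.22, 0.25, 0.30 and 0.38. Here the arrays were close, the rise was 0.29 (SE 0.06, interval 0.14 to 0.44, adjusted p 0.022), and 4 of its 5 probes passed. Without arrays 1 to 4 the adjusted p was 0.0631, 0.116, 0.0931 and 0.0544 for *GOT2*, and 0.077, 0.123, 0.124 and 0.0685 for *ACO1*. For *SLC25A10* it was 0.0957 without array 2, 0.093 without array 3 and 0.0581 after normexp correction with loess, where its mean was 0.17. Without lowess the means were 0.55 (*GOT2*, adjusted p 0.00822, above its interval), 0.41 (*ACO1*, 0.0154) and 0.25 (*SLC25A10*, 0.0697, the call lost).

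The largest means of the same group that missed the threshold were those of a pair of cytosolic aminotransferases. *GOT1*, the cytosolic aspartate aminotransferase, had log2 ratios of 0.05, -0.27, -0.53 and -0.51 and a mean of -0.31 (SE 0.11, interval -0.58 to -0.05, adjusted p 0.0854). It was below 0 on arrays 2 to 4, and without array 1 its adjusted p was 0.0306. Without lowess its mean was -0.04. *GPT*, the alanine aminotransferase, had log2 ratios of 0.08, -0.45, -0.15 and -0.69 and a mean of -0.30 (interval -0.61 to 0.01, adjusted p 0.137), with an HMB signal well above background on 3 of 4 arrays. Its mean was -0.06 after normexp correction with loess, -0.19 without lowess and -0.17 without array 4. *GLUD1* was not found by name.

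**Figure D4:**
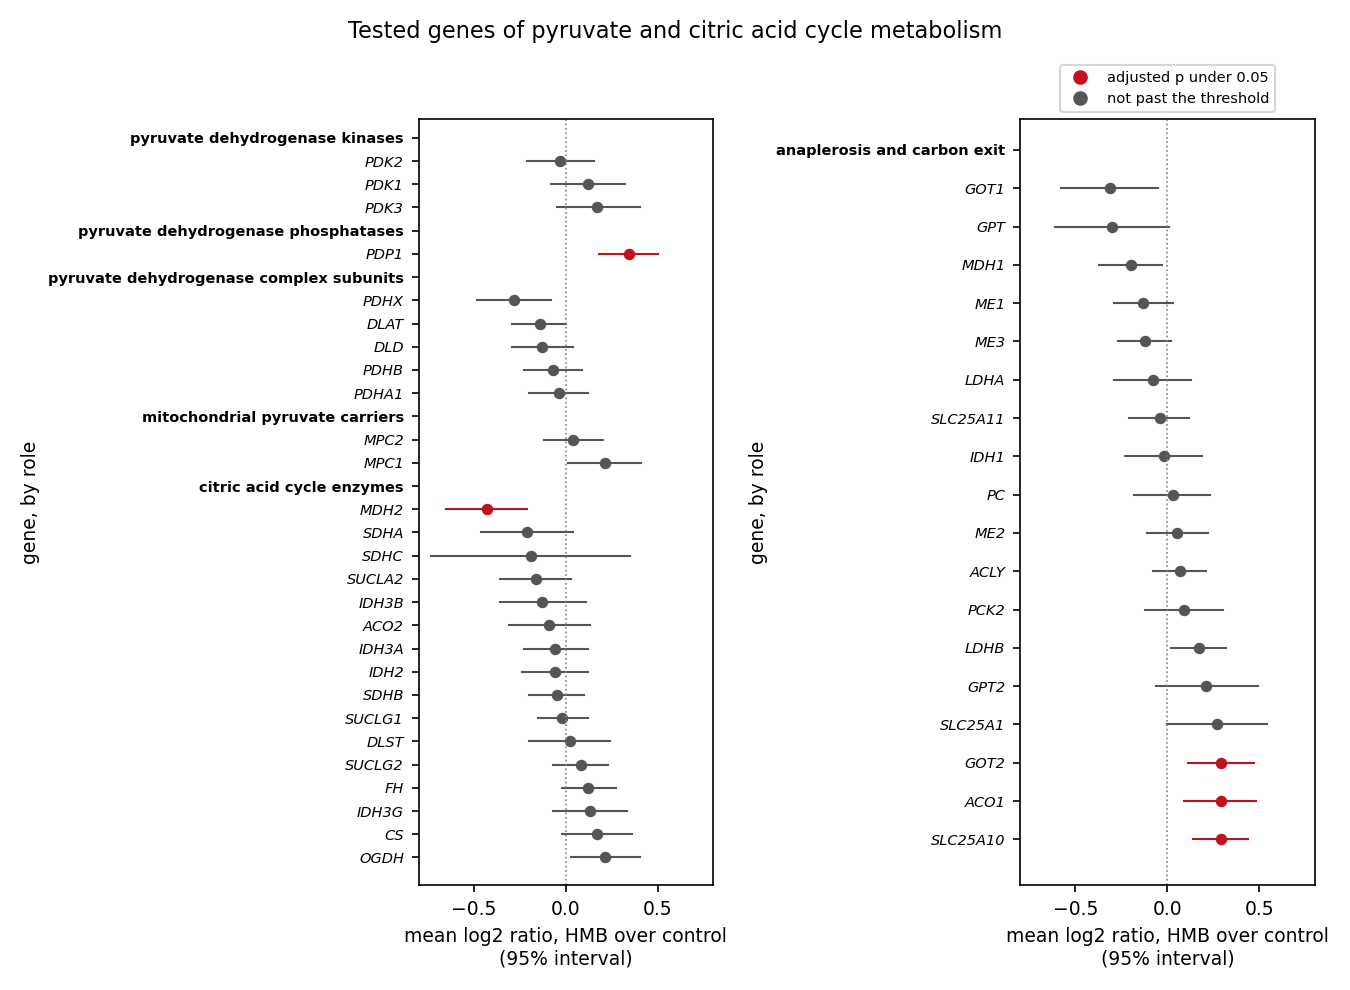
Mean log2 ratio of HMB-treated v. control cells with its 95% interval from limma (*n* 4) for the 45 tested genes of pyruvate oxidation, the citric acid cycle and its side reactions, by role. The 5 past the adjusted threshold (red) are *MDH2* below 0 (0.11 without lowess) and *PDP1*, *GOT2*, *ACO1* and *SLC25A10* above it.

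The branched-chain ketoacid dehydrogenase, which leads leucine carbon into oxidation and is governed by a kinase related to the *PDK* family, was tested through 5 genes. Of these, 0 passed the threshold in limma, compared with 22.8% of all tested genes, and 0 in the per-probe test, compared with 2.8% of all tested probes. At an unadjusted limma p under 0.05 there was 1, and the median was 0.02, compared with 0.03 over all tested genes. *BCKDHB*, its E1 beta subunit, had log2 ratios of 0.09, 0.20, 0.23 and 0.15 and a mean of 0.17 (interval 0.02 to 0.31, adjusted p 0.0901, higher on 4 of 4 arrays), and its dimmer probe, at 0.28, passed. Without lowess the gene passed at 0.37 (adjusted p 0.0384). *PPM1K*, its phosphatase, was above 0 on arrays 1 to 3, at 0.27, 0.29 and 0.19, and below it on array 4, at -0.30 (mean 0.11, adjusted p 0.495). Without lowess its mean was 0.24 and without array 4 it was 0.25.

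Transcription of the kinases is known to be driven by PPAR and FOXO factors (above all *PDK4*) and by HIF1 (*PDK1* and *PDK3*). Of 10 tested regulators, 3 (30%) fell and 0 rose, compared with 11.3% of all tested genes lower, with a median of -0.21 (-0.03 without lowess). Without lowess and in the per-probe test 0 of the 10 passed, while 5 had an unadjusted limma p under 0.05. The means without lowess of the 3 that fell were -0.27 (*FOXO1*), -0.15 (*PPARA*) and -0.10 (*PPARGC1B*). They were *FOXO1*, at -0.20, -0.64, -0.51 and -0.51 on arrays 1 to 4 (mean -0.46, adjusted p 0.015), *PPARA* (mean -0.33, adjusted p 0.031) and the coactivator *PPARGC1B* (mean -0.28, adjusted p 0.0241, 5 of 5 probes past the threshold). *PPARD*, *PPARG*, *PPARGC1A* and *ESRRG* were too dim to be tested. *ESRRA*, which the study lists as decreased by HMB, was not past the threshold (mean -0.16, adjusted p 0.0961), although 2 of its 5 probes passed, both lower. Without array 3 the adjusted p was 0.0624 for *FOXO1*, 0.121 for *PPARA* and 0.11 for *PPARGC1B*. *FOXO1* (0.0674) and *PPARGC1B* (0.131) were also not past the threshold without array 2, nor *PPARA* without array 1 (0.0779) or array 4 (0.0664), or after normexp correction with loess (mean -0.18, adjusted p 0.0657).

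Genes known to be induced by PPAR factors passed in 3 of 15 cases (20%, compared with 22.8% of all tested genes), with a median of -0.04 (0.03 without lowess), and in 0 cases in the per-probe test. Of those 3, 1 was higher and 2 lower, while without lowess 2 were higher and 1 lower, and after normexp correction with loess 0 were higher and 2 lower. *CPT1B*, the muscle enzyme that admits fatty acids to mitochondria, fell by 0.87 on average, with values between -1.78 (array 4) and -0.23 (array 1) and an adjusted p of 0.0411. Its mean was -0.52 after normexp correction with loess, -0.50 without lowess and -0.57 without array 4. *ACAA2*, a thiolase of fat oxidation, rose by 0.21 (adjusted p 0.0494, 0.0934 after normexp correction with loess, and a mean of 0.50 without lowess). Without array 2 the adjusted p was 0.101 for *CPT1B* and 0.163 for *ACAA2*. Without array 3 it was 0.0892 and 0.17 in the same order, and *ACAA2* also lost its call without array 1 (0.0941) and array 4 (0.0686).

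Of 9 tested genes induced by FOXO factors, 4 (44.4%, compared with 22.8% of all tested genes) passed, 3 lower and 1 higher, with a median of -0.19 (-0.10 without lowess). Without lowess 1 was lower and 1 higher, after normexp correction with loess 4 were lower and 1 higher, and in the per-probe test 0 of the 9 passed. *TRIM63*, a ubiquitin ligase of muscle wasting, fell by 0.87 (adjusted p 0.00397, lower on 4 of 4 arrays), and all 4 of its probes passed. *GADD45A*, a stress-response gene, and *SESN1*, a sestrin, fell by 0.61 (adjusted p 0.0231) and 0.38 (adjusted p 0.042), and both lost the call without lowess (-0.29, adjusted p 0.0711, and -0.24, adjusted p 0.0725). *GABARAPL1*, an autophagy gene, rose by 0.75, with log2 ratios of 1.14, 0.63, 1.00 and 0.25 (adjusted p 0.0178). Its mean was 0.34 after normexp correction with loess (adjusted p 0.0352) and 0.25 without lowess (adjusted p 0.12). *TRIM63* passed whichever array was left out, with a highest adjusted p of 0.0193, but not in the per-probe test (0.0722). Without array 3 the others had adjusted p values of 0.07 (*GADD45A*), 0.131 (*SESN1*) and 0.0668 (*GABARAPL1*). *SESN1* was also not past the threshold without array 2 (0.112) and array 4 (0.0707), nor *GABARAPL1* without array 1 (0.0527).

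Of 14 genes induced by HIF1, 4 (28.6%, compared with 22.8% of all tested genes) passed, 2 higher and 2 lower, with a median of -0.02 (0.28 without lowess). Without lowess 6 were higher and 0 lower, compared with 5706 and 1585 of all 27383 tested probes. In the per-probe test 0 of the 14 passed. *ADM*, the adrenomedullin gene, rose by 0.51 (adjusted p 0.00618) and *NDRG1*, a stress-response gene, by 0.27 (adjusted p 0.0401), each above 0 on 4 of 4 arrays. The glycolytic gene *PGK1* was lower by the authors' normalisation (mean -0.30, adjusted p 0.0235), with 1 of its 2 probes past the threshold, but was higher without lowess (0.60, adjusted p 0.0221). Its call was lost after normexp correction with loess (mean -0.10, adjusted p 0.187), in the per-probe test (0.0829) and as the mean of its probes (-0.22, adjusted p 0.059). *EGLN3*, an oxygen-sensing hydroxylase, fell by 0.22 (adjusted p 0.0494), with 1 of 2 probes past the threshold. Without lowess the means were 0.89 (*ADM*, adjusted p 0.00827), 0.34 (*NDRG1*, 0.0247) and -0.11 (*EGLN3*, 0.296). *ADM* passed whichever array was left out, with a highest adjusted p of 0.0353, but not in the per-probe test (0.0616). Without arrays 1 to 4 the adjusted p was 0.0818, 0.179, 0.0619 and 0.0848 for *NDRG1*, and 0.0985, 0.129, 0.2 and 0.0692 for *EGLN3*, and for *PGK1* it was 0.118 without array 2 and 0.109 without array 3.

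The pathways on either side of the members were counted for comparison. Of 18 tested glycolytic genes, 6 (33.3%) were called lower and 0 higher, compared with 11.3% and 11.5% of all tested genes, and after normexp correction with loess 4 were lower and 1 higher. Their median of -0.04 turned to 0.40 without lowess, where 12 were called higher and 1 lower, compared with 5706 and 1585 of all 27383 tested probes. Of 45 tested subunits of the respiratory chain, 6 (13.3%, close to the 11.3% of all tested genes) were called lower and 0 higher. Of the 45 means 37 were below 0, compared with 4529 of all 9986 tested genes. After normexp correction with loess 11 were lower and 2 higher. Their median of -0.15 turned to 0.39 without lowess, where 19 were called higher and 1 lower, to be read against the same counts of all tested probes. With array 2 or array 3 left out, 1 gene of each list was called lower. Among the glycolytic genes called lower, *PGAM2* (-0.93) and *ENO3* (-0.52) had the lowest means. For others called lower, not every probe passed: 2 of 4 did for *GPI*, 1 of 5 for *ALDOA* and 1 of 2 for *PGK1*. Of the myogenic markers 11 of 12 fell as well, and the part of differentiation state in the counts of both lists was not tested. Differences between these lists and the members were not tested either.

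**Figure D5:**
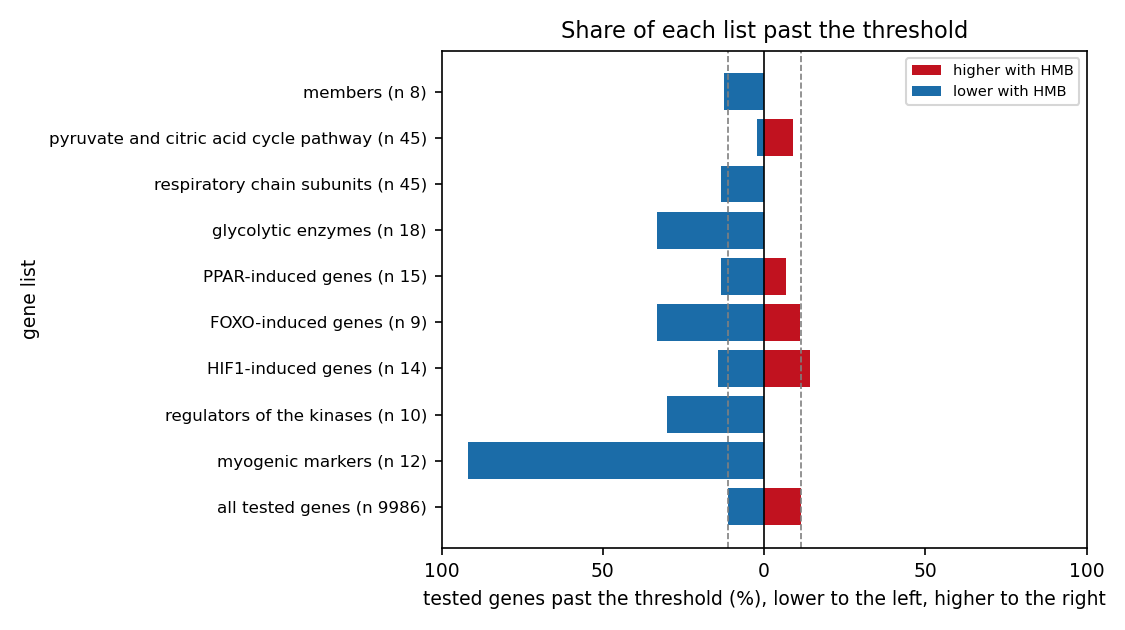
Percent of the tested genes of each list past the adjusted threshold in limma, lower with HMB to the left and higher to the right (*n* 4), with dashed lines at the shares of all 9986 tested genes (11.3% lower and 11.5% higher). Myogenic markers stand out with 11 of 12 lower. For glycolytic enzymes and respiratory chain subunits, calls were lower with the authors' lowess normalisation and mostly higher without it. Without lowess, calls over all tested probes were mostly higher too (5706 higher and 1585 lower). The 1 member called was *MDH2*, lower, and without lowess it was *OGDH*, higher.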

How the data were processed

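RNA of HMB-treated cells (Cy5) and control cells (Cy3) was hybridised to 4 two-colour horse arrays. Per the file headers, the scans were read with Feature Extraction 10.10.1.1, while the methods section names another version. Its processed intensity values were deposited after background subtraction, detrending and dye normalisation, and its raw intensity values were deposited as spot means and local background medians. The log10 ratio of each spot, Cy5 over Cy3, was deposited after the linear and lowess steps of the authors, and the series table repeats it. Deposited marks of 0 or 1 tell which spots were bright enough, uneven, outlying or saturated. The descriptions in the labels say GO-treated where titles and sources say HMB, and HMB was used.

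For the log2 scale the ratios were multiplied by 3.32. Control spots and marked spots (uneven or outlying) were dropped, and replicate spots averaged. Tests covered the 27383 of 43603 probes that had 1 channel well above background on every array and values on 3 or more arrays. limma 3.58.1 (R 4.3.3) was fitted with an intercept alone and empirical Bayes variances, and p values were adjusted by Benjamini and Hochberg. The fit was tested on simulated data. Python 3.11.15, pandas 2.3.3, numpy 2.4.6 and matplotlib 3.10.9 made the tables and figures. The most intense tested probe stands for a gene. Symbols came from the files for 27352 probes, from the RefSeq table of assembly TB-T2T (names only) for 428 by accession and 236 by synonym, from descriptions for 89 and from a shared accession for 425, and 15073 had none. Positions are those of the files on EquCab1.

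The members and lists were chosen with earlier results of these data known. Named are the members, the genes of the pathway and branched-chain lists past the threshold, the 2 largest means of each role, up to 6 genes past the threshold in each list of induced genes and regulators, the 5 genes nearest to the member with the largest mean, and the cell type markers. *DLD* and *SDHC* were also named after their values were seen, and the values of 1 gene among the nearest and 1 among the PPAR-induced genes are not reported. The channels of an array are paired by hybridisation, and over the tested probes their deviations from the channel means correlated at 0.59, 0.64, 0.45 and 0.63 on arrays 1 to 4, higher than with the other channel of any other array.

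Alternatives were normexp correction (offset 50), either with loess or with median centring and no lowess (called without lowess). Others were a one-sample Student test of each probe on its own ratios (the per-probe test; the workbook supplied with the study names a Student test without its form, and the methods section names none), a trend with robust prior, separate channels with the array as block and without, all dim probes kept, only probes bright in both channels, marked spots retained, the series table, at least 1.3-fold, gene means over probes, and each array left out.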

Additional observations from a re-analysis of the deposited data

Results flagged for a closer look

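Among 61 genes looked at, 3 (4.92%) had 1 array far from the other 3, and chance alone gives about 1 in 20. The log2 ratio of *GOT2* was 0.51 on array 1 and between 0.21 and 0.24 on the others. The log2 ratio of *ACO1* was 0.54 on array 1 and between 0.19 and 0.21 on the others. The log2 ratio of the leukocyte marker *PTPRC* was 0.47 on array 1 and between 0.21 and 0.22 on the others.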

How the results depend on the processing

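Of 900 comparisons of 61 genes over 15 alternatives, 698 kept their direction and side of the threshold, 167 lost and 16 gained a call, and 19 changed direction. The count of probes past the threshold, 6257, was 768 in the per-probe test (8435 at an unadjusted p under 0.05), 2226 with separate channels and no block, 3690 with no filter on dim probes, 3863 with a minimum of 1.3-fold and 2569 to 4981 with an array left out. With the array as block and with the series table it was 6257. Both repeat the main fit, so that their unchanged calls, which are among the 698 kept, were fixed in advance. Members past it, 1 by limma, were 0 in the per-probe test (1 at an unadjusted p under 0.05), 0 with no filter and 0 to 1 with an array left out, and with median centring the 1 was *OGDH* and not *MDH2*. Pathway genes past it, 5, were 12 with median centring (all higher), 6 with normexp and loess (2 higher, 4 lower), 0 in the per-probe test, 1 with no block, 2 with no filter, 1 with 1.3-fold and 0 to 5 with an array left out. With median centring the means of *PDHA1* (0.25), *MDH2* (0.11), *SUCLA2* (0.06), *DLAT* (0.03), *PGK1* (0.60), *COL1A1* (0.27), *COL1A2* (1.02), *COL3A1* (0.91), *THY1* (0.07) and *FBN1* (0.62) turned positive. With normexp and loess *COL1A2* (0.17) and *COL3A1* (0.10) turned positive and *LUM* (-0.04) and *CD14* (-0.03) negative. With an array left out, *CD14* ranged from -0.04 (without array 1) to 0.08, *PDK2* from -0.09 to 0.02 (without array 2) and *LUM* from -0.02 (without array 2; also negative without array 3) to 0.03. *LUM* was at -0.11 as the mean of its probes. The cause was not tested. Signals near background limit *PDK4*, *PDP2* and *PDPR*.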
